A study of Mus musculus with 8 samples.

Results

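The data described here are those of 9 long noncoding RNAs in mouse liver, 4 nuclear RNAs (Malat1, Neat1, Kcnq1ot1 and Meg3) and 5 RNAs whose introns carry small nucleolar RNAs (Gas5, Snhg1, Snhg6, Snhg8 and Snhg12). They were chosen by gene symbol, with no measured value in the rule, and all 9 were found among the 24079 symbols held by both assays. The RNA-seq and Ribo-seq libraries came from livers of C57BL/6 mice at postnatal week 25 that had been fed, from week 8, a high-fat diet in which fat supplied 45% of the energy. The HF group received this diet alone, and the HB group received it together with betaine, a methyl donor, given as a 2% (w/v) solution in water. Each group had 6 mice and was represented by 2 RNA-seq and 2 Ribo-seq libraries. The sources differ on what a library is: the labels speak of RNA preparations that were pooled in equal amounts, whereas the study's methods name 2 mice of each group as those sequenced. The p-values therefore measure only the spread between these libraries, which may or may not be a spread between animals. Both groups ate the high-fat diet, and the contrast is therefore between the diet with and without betaine.

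Long noncoding RNAs are transcribed and processed by the machinery that makes mRNA, but carry no long conserved reading frame. Malat1 and Neat1 are kept in the nucleus, where Malat1 is found in nuclear speckles and Neat1 is the scaffold of paraspeckles. Kcnq1ot1 acts in cis on an imprinted gene cluster, and Meg3 is an imprinted RNA that is enriched in the nucleus. The host RNAs release small nucleolar RNAs (snoRNAs), the guides of ribosomal RNA modification, from their introns. Their spliced exons can reach the cytoplasm, where several are bound by ribosomes and then degraded by nonsense-mediated decay. The ratio of ribosome-protected fragments (RPFs, the footprints of Ribo-seq) to mRNA is the quantity the study calls translational efficiency (TE), and for a noncoding RNA it is only a count of protected fragments per transcript.

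Depth differed strongly between the assays. The reads behind the RPKM values (reads per 1000000 reads and kilobase of gene length) numbered from 11661207 to 22543471 in the RNA-seq libraries and from 141890 to 1056546 in the Ribo-seq libraries. Of the Ribo-seq reads, 5.19% and 6.53% in HF and 9.22% and 17.6% in HB fell on small RNA genes. A value of 3 reads, used below as the limit that a count of 0 allows, was worth 2.84 to 21.1 RPKM on a gene of 1 kb in Ribo-seq. RPF values of the short host RNAs therefore rested on few reads, least of all in HB. Intervals and limits cover counting error only. All 6 hepatocyte markers were present in every library, with summed mRNA levels between 46242 and 54013 RPKM. The 6 macrophage and 6 endothelial markers summed to between 102.3 and 127.8 RPKM and between 55.7 and 67.8 RPKM in mRNA, and none of these was called in that assay. In footprints, the macrophage markers summed to 166 and 134 RPKM in HF and 169 and 96.6 RPKM in HB. The endothelial markers summed to 153 and 124.3 RPKM in HF and 135.3 and 60.7 RPKM in HB. Of these, 1 of 6 macrophage and 2 of 6 endothelial markers were called lower, beside 7.86% of all genes tested in footprints. The stellate and fibroblast markers summed to 47.6 and 40.9 RPKM in HF and 89.8 and 56.6 RPKM in HB in mRNA, but to 151.1 and 124.5 RPKM in HF and 98.0 and 82.2 RPKM in HB in footprints, and none was called in either assay. Blood markers summed to 653 and 490 RPKM in HF and 687 and 2181 RPKM in HB in mRNA. There 1 of 4 was called higher, beside 2.3% of all genes tested in mRNA. In footprints they summed to 1037 and 539 RPKM in HF and 2455 and 314 RPKM in HB, with 0 called. Their part in the results below was not tested.

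The genes lie on 6 chromosomes of the mouse genome (GENCODE M21 annotation on build GRCm38, the build the study names mm10). Malat1 (chr19:5795690-5802672, minus strand) and Neat1 (chr19:5824708-5845478, minus strand) are neighbours, and their longest annotated transcripts each have 1 exon. Kcnq1ot1 (chr7:143203458-143296549, minus strand) runs antisense to the protein-coding gene Kcnq1, and Meg3 lies at chr12:109541001-109571726 on the plus strand. Gas5 (chr1:161034422-161038539, plus strand) contains 10 annotated snoRNA genes and Snhg1 (chr19:8723475-8726443, plus strand) contains 8. Snhg12 (chr4:132308623-132311024, plus strand) contains 5, whereas Snhg6 (chr1:9941959-9944118, minus strand) and Snhg8 (chr3:123507552-123508404, minus strand) contain 1 each. Gas5 overlaps Zbtb37 and Snhg6 overlaps Mcmdc2 on the opposite strand. The RNA-seq kit did not mark the strand, so reads from Kcnq1ot1, Gas5 and Snhg6 cannot be told apart from reads of these overlapping genes.

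Host genes of snoRNAs are known for transcripts that open with a run of pyrimidines, the 5′ terminal oligopyrimidine (TOP) feature they share with mRNAs of ribosomal proteins. The starts below show where the host RNAs differ in it, with Malat1 as a nuclear RNA without it. Each sequence holds 30 bases of the transcribed strand from RefSeq (GRCm38.p6), with 10 bases before the annotated start. Capitals mark a C followed by at least 4 bases that are each C or T, beginning within 10 bases of the start.
Gas5, second start, chr1:161035156-161035185 (+): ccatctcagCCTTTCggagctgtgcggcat
Snhg8, chr3:123508317-123508346 (-): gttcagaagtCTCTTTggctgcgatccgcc
Snhg12, chr4:132308668-132308697 (+): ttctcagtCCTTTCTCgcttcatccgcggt
Snhg1, chr19:8723477-8723506 (+): tcttgtcggcctcatttttccttgttcggg
Malat1, chr19:5802653-5802682 (-): ggctctgcgtcaggcattcaggcagcgaga
The run began exactly at the annotated start in Snhg8 and 2 bases before it in Snhg12. In Gas5 the run of 6 bases began 1 base before the second start, and the first annotated start had none. Snhg1 had no such run. A run was present at the start itself in 2.51% of the 32851 promoters of the table and within 10 bases of it in 30.7%. Among the nuclear RNAs, neither Malat1 nor Kcnq1ot1 had one, and Meg3 had a run of 5 bases beginning 5 bases before the first of its starts. Neat1 and Snhg6 were not matched.

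In mRNA, Malat1 was the most abundant member in RPKM and did not differ between the groups beyond the spread. Neat1, Snhg1 and Snhg12 were lower in HB. In reads, which use no length, Neat1 exceeded Malat1 in HF (28320 against 13587) but not in HB (16672 against 23398). Of the 8 members with a mean of at least 1 RPKM, 3 were called lower (Neat1, Snhg1 and Snhg12) and 0 higher by the study's rule (log2 fold change over 1 in size, unadjusted p under 0.001). Over all 10687 genes tested the rule called 6.56% lower and 2.3% higher. When the libraries were shifted to a common median, which moved the median change of all genes from -0.19 to 0.08, it called 2.72% lower and 5.05% higher, and 2 members lower and 0 higher. The median log2 fold change of HB over HF was -0.97 over the 8 members, beside -0.19 over all tested genes. All fold changes are from limma on log2(RPKM + 1), a scale that understates changes of low genes. Kcnq1ot1 did not pass the filter and was not tested in mRNA.

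**Figure D1:**
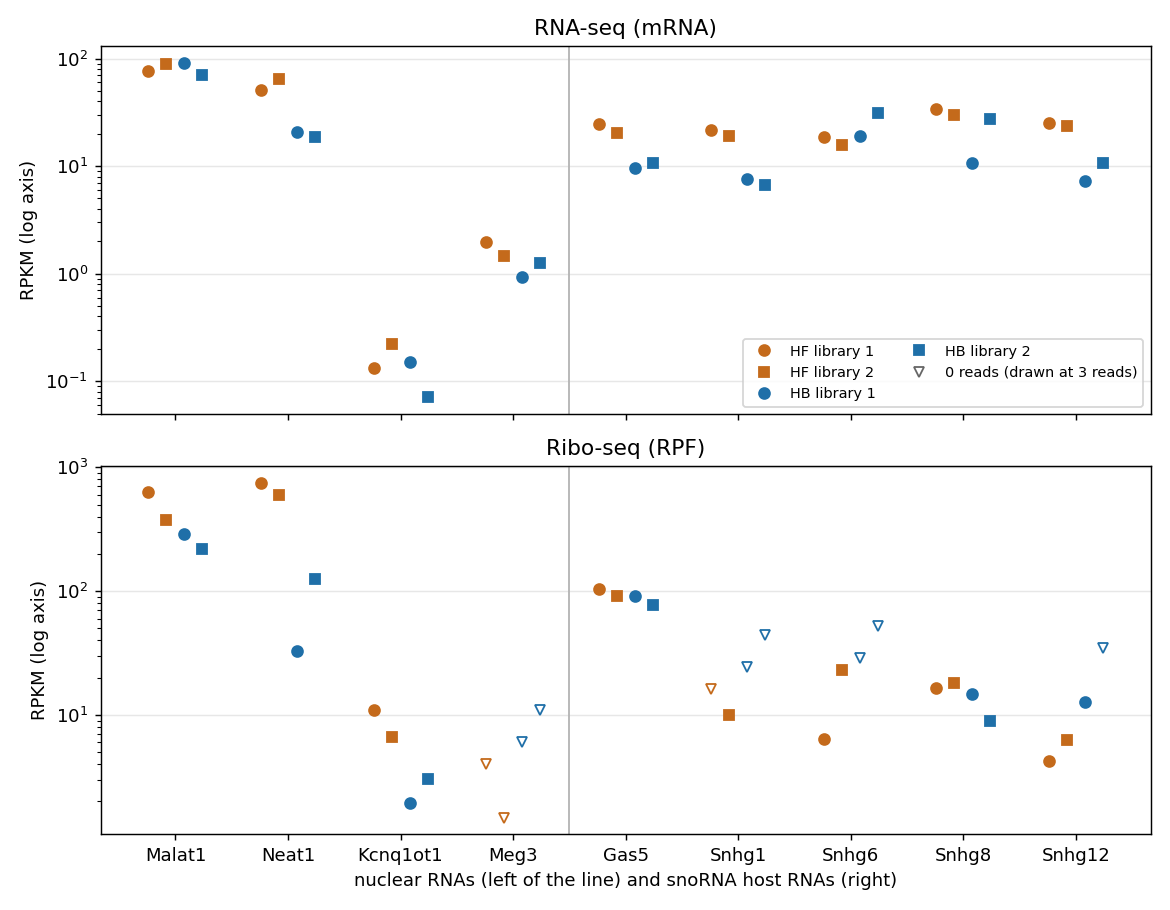
Level of each of the 9 RNAs in every library, in RPKM on a log axis, for RNA-seq (top) and Ribo-seq (bottom), with HF in orange and HB in blue. Open triangles stand for 0 reads and are drawn at the RPKM of 3 reads. Neat1 is lower in both HB libraries than in both HF libraries in either assay, whereas Malat1 overlaps between the groups in mRNA.

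The Neat1 level in mRNA was 51.3 and 64.8 RPKM in HF and 20.6 and 18.7 RPKM in HB. Both HB libraries lay below both HF libraries, and the mean was 2.95-fold higher in HF. Neat1 fell by 1.51 ± 0.25 on the log2 scale (SE, n = 2 libraries a group, limma adjusted p = 0.00583). These values rested on 7027 to 15907 reads a library. Without HF library 2 the log2 fold change was -1.34, which no longer passed the rule on p. Malat1, its neighbour on the chromosome, had 76.7 and 88.9 RPKM in HF and 91.6 and 71.1 RPKM in HB. The groups overlapped, and the log2 fold change was -0.03 ± 0.26 (SE, n = 2, limma adjusted p = 0.939). The difference between the effects on these 2 RNAs was not tested.

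The other nuclear RNAs were scarce in liver. Kcnq1ot1 stood at 0.133 and 0.223 RPKM in HF and 0.150 and 0.0709 RPKM in HB, on 107 to 282 reads spread over its 83437 bases. The 2 groups overlapped. Meg3 stood at 1.97 and 1.46 RPKM in HF and 0.928 and 1.24 RPKM in HB, on 33 to 44 reads. Its HB libraries were the lower ones, with a log2 fold change of -0.38 ± 0.24 (SE, n = 2, limma adjusted p = 0.261), which did not pass the test.

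The host RNAs had similar levels in HF, between 15.8 and 34.0 RPKM in each library, and separated in HB. Snhg1, which carries guides of the box C/D class, had 21.8 and 19.2 RPKM in HF and 7.55 and 6.62 RPKM in HB. Both HB libraries were below both HF libraries, and Snhg1 fell by 1.41 ± 0.25 on the log2 scale (SE, n = 2, limma adjusted p = 0.00647). Without HF library 1 it had a log2 fold change of -1.32 and was not called. Snhg12 had 25.3 and 23.6 RPKM in HF and 7.25 and 10.7 RPKM in HB. It was again lower in both HB libraries, by 1.37 ± 0.27 as a log2 fall (SE, n = 2, limma adjusted p = 0.00833). The Snhg12 call did not hold without HF library 1, HF library 2 or HB library 1, where its log2 fold change was -1.33, -1.42 and -1.12. It did not hold either when the libraries were shifted to a common median, at a log2 fold change of -1.10, or with no filter on low values.

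Gas5, which accumulates in cells arrested in growth, had 24.8 and 20.5 RPKM in HF and 9.59 and 10.7 RPKM in HB. The groups were separate, but the log2 fold change of -1.08 ± 0.25 missed the study's p (SE, n = 2, limma adjusted p = 0.0139). It was called with the adjusted p under 0.05, a rule under which 4 of the 8 members were lower, beside 12.7% of all tested genes lower and 5.01% higher. The other host RNAs did not pass either rule. Snhg8 had 34.0 and 30.2 RPKM in HF but 10.7 and 27.4 RPKM in HB. Its HB libraries differed more from each other than HB library 2 did from HF, and the log2 fold change was -0.86 ± 0.38 (SE, n = 2, limma adjusted p = 0.119). Without HB library 2 it was -1.50 and passed the study's rule. Snhg6 had 18.8 and 15.8 RPKM in HF and 19.2 and 31.0 RPKM in HB. It was the only host RNA of the 5 with the higher mean in HB, at a log2 fold change of 0.48 ± 0.29 (SE, n = 2, limma adjusted p = 0.237).

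**Figure D2:**
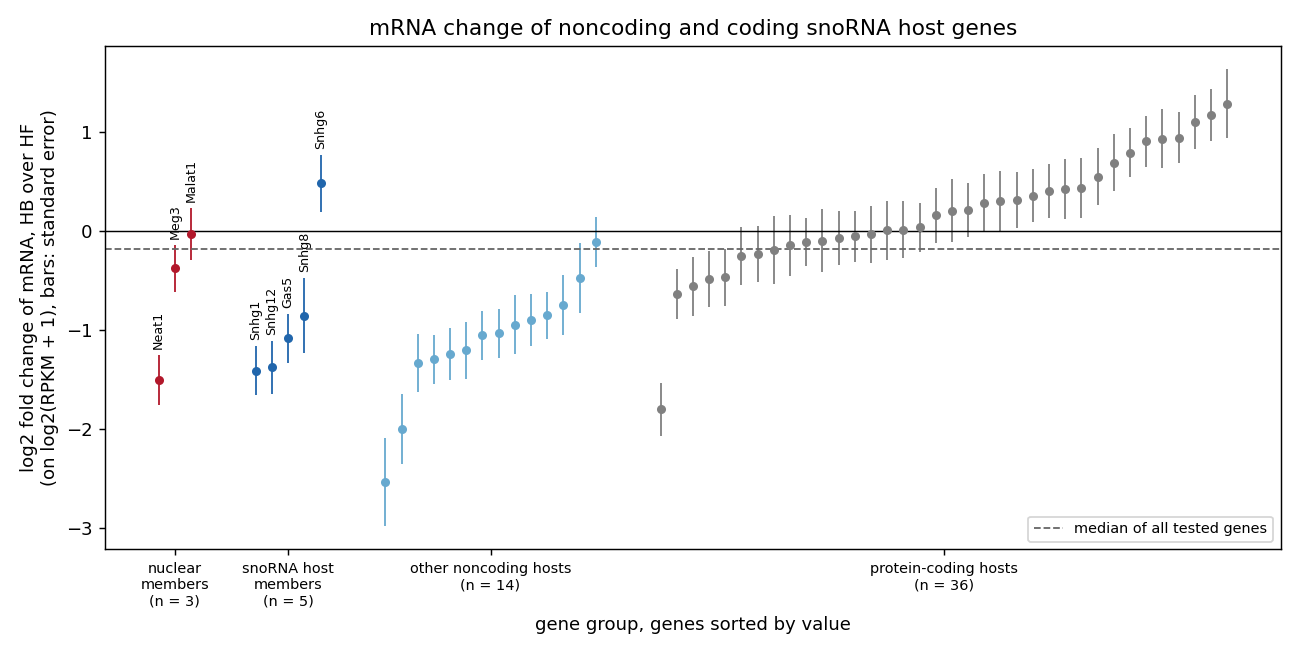
Log2 fold change of mRNA of HB over HF on log2(RPKM + 1), with standard errors, for the nuclear and host members tested, 14 other noncoding host RNAs and 36 protein-coding host genes. The dashed line is the median of all tested genes at -0.19. All 14 other noncoding hosts lie below 0, while 22 of the 36 protein-coding hosts lie above it.

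The other noncoding snoRNA host RNAs showed the same direction in mRNA. Of 16 listed, 14 were tested, all 14 had a log2 fold change below 0, and 4 were called lower with a list median of -1.04. Of all genes tested, 60.2% lay below 0 and 6.56% were called lower. Snhg3 had 181.5 and 87.7 RPKM in HF and 13.1 and 33.2 RPKM in HB. Its log2 fall of 2.54 ± 0.45 (SE, n = 2, limma adjusted p = 0.00653) was the largest in the list. Snhg20 had 155.8 and 117.4 RPKM in HF and 22.6 and 48.3 RPKM in HB, and Snhg11 had 13.1 and 14.8 RPKM in HF and 5.18 and 4.98 RPKM in HB. Both fell, by 2.00 and 1.30 on the log2 scale. The remaining called RNA, Snhg10, fell by 1.24 on this scale. With adjusted p under 0.05, 8 of the 14 were lower, beside 12.7% of all tested genes. Shifted to a common median, 13 of the 14 stayed below 0 and 2 were called, with a list median of -0.77. Of all tested genes, 45.3% then lay below 0 and 2.72% were called lower. With 1 library left out, the list median ranged from -1.16 to -1.03 and the calls changed. Without HB library 1, 12 of the 14 lay below 0. Snhg11 was not called without HF library 1 or HF library 2, at -1.38 and -1.21, nor Snhg10 without HF library 2 or HB library 1, at -1.06 and -1.07, and neither was called with a common median, at -1.02 and -0.97. With no filter on low values none of the 4, Snhg3 and Snhg20 included, was called by limma on p, although the log2 fold changes were the same. That fit called 1.12% of all 16758 genes lower.

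Protein-coding genes that carry snoRNAs in their introns, mostly genes of ribosomal proteins and translation factors, did not show this pattern. Of 36 tested, 22 had a log2 fold change above 0 and 14 below, 0 were called higher and 1 lower, and the median was 0.18, beside 60.2% of all tested genes below 0. With adjusted p under 0.05, 3 were higher and 1 lower, beside 5.01% and 12.7% of all tested genes. The gene called lower was Nop56, a core protein of box C/D snoRNPs, with 44.2 and 36.5 RPKM in HF and 12.9 and 9.02 RPKM in HB. It fell by 1.80 ± 0.27 on the log2 scale (SE, n = 2, limma adjusted p = 0.00526). Among 13 tested subunits and assembly factors of snoRNPs, Nop56 was the only one called by the study's rule, and the list median was -0.16. With adjusted p under 0.05, 2 of the 13 were lower and 1 higher. Shifted to a common median, 31 of the 36 protein-coding hosts lay above 0 and 2 were called higher. Of all 10687 tested genes, 5848 then lay above 0 and 5.05% were called higher. Without HB library 2 the median of these 36 hosts was 0.02, and without HB library 1 it was 0.34. The lists were not compared with each other by a test.

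The nuclear RNAs outside the members were mostly too scarce to test, with 3 of 12 passing the filter. Tug1 fell from 10.6 and 10.2 RPKM in HF to 4.23 and 3.84 RPKM in HB, by 1.18 ± 0.24 on the log2 scale (SE, n = 2, limma adjusted p = 0.00992). The call of Tug1 was lost without HF library 1, HF library 2 or HB library 2, at log2 fold changes of -1.15, -1.21 and -1.12. It was also lost with a common median, at -0.91, with a common sum, at -1.22, and with no filter. Firre, an X-linked RNA with repeats that holds chromosomal loci together, had 31.9 and 39.8 RPKM in HF and 12.5 and 17.6 RPKM in HB, and was not called by the study's rule (limma adjusted p = 0.0127). Ftx was tested as well, also with a log2 fold change below 0. Mir22hg, the host of a microRNA, fell by 2.04 on the log2 scale. None of the 10 paraspeckle protein genes was called in mRNA by the study's rule, with a median log2 fold change of -0.29. With adjusted p under 0.05, 2 of the 10 were lower, beside 12.7% of all tested genes. Among the 15 genes of nonsense-mediated decay and the exon junction complex, the median was -0.37. The study's rule called 2 lower, beside 6.56% of all tested genes, and the adjusted p called 3. Upf3b was called lower at a log2 fold change of -1.26. This call was lost without HF library 1, HF library 2 or HB library 2, at -1.23, -1.29 and -1.08, with a common median, at -0.99, and with no filter.

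In footprints, Malat1 and Neat1 had the highest levels in HF, and Neat1 was lower in HB. Of 8 members tested, 2 were called lower (Neat1 and Snhg6) and 0 higher by the study's rule for RPFs (log2 fold change over 1 in size, unadjusted p under 0.05), beside 7.86% lower and 1.58% higher of all 11190 genes tested. Snhg1 and Snhg6 passed the filter through HF reads alone, so a fall in them was fixed by the filter. The median log2 fold change of all tested genes was -0.43. No gene of the table had an adjusted p under 0.05 with that fold change in limma, while 1122 had an unadjusted p under 0.05.

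The Neat1 level in RPF was 748 and 599 RPKM in HF and 33.0 and 126.1 RPKM in HB, from 924, 2015, 27 and 57 reads. The HB libraries were far below the HF libraries, although they differed from each other by more than their counting error. Exact Poisson 95% intervals of the read counts are given here in reads per 1000000 reads (RPM). They were 69.2 to 152.8 in HB library 1 and 304.3 to 520.5 in HB library 2, beside 2230 to 2540 and 1825 to 1992 in HF. Neat1 fell by 3.35 ± 0.66 on the log2 scale (SE, n = 2, limma adjusted p = 0.493). It was no longer called without HF library 1 or without HF library 2, although its log2 fold change was then -3.19 and -3.51.

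Malat1 had 637 and 376 RPKM in RPF in HF and 291 and 220.0 RPKM in HB, on 218 to 2773 reads. The groups did not overlap, and the mean was 1.98-fold higher in HF. The log2 fold change of -0.95 ± 0.37 missed both thresholds (SE, n = 2, limma adjusted p = 0.498). With RPKM rescaled to a common sum it was -1.82, and without HF library 2 it was -1.33, and both were called. The common sum moved the whole footprint table, to a median log2 fold change of -1.16 with 23.8% of all genes called lower. For Malat1, the other settings gave smaller falls. Without HF library 1 it was -0.57 and with a common median -0.62, and neither was called. Kcnq1ot1 had 11.0 and 6.60 RPKM in HF and 1.96 and 3.04 RPKM in HB, from 356, 582, 42 and 36 reads. HB was lower in both libraries, at a log2 fold change of -1.47 ± 0.61 (SE, n = 2, limma adjusted p = 0.515) that did not pass. It was called without HB library 2, at -1.69, with a common sum, at -2.19, and with no intensity trend in the fit, but not without HF library 1 or with a common median, at -1.14 in both. Meg3 had 0 reads in all 4 Ribo-seq libraries. This allows up to 4.04 and 1.48 RPKM in HF and 6.10 and 11.1 RPKM in HB.

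Gas5 had the highest footprint level of the host RNAs, below those of Malat1 in every library. Its RPF level was 104.9 and 91.8 RPKM in HF and 91.3 and 77.2 RPKM in HB, from 26, 62, 15 and 7 reads. The groups differed by little, with a log2 fold change of -0.22 ± 0.28 (SE, n = 2, limma adjusted p = 0.776). Snhg8 had 16.4 and 18.1 RPKM in HF and 14.9 and 8.98 RPKM in HB, on 24 reads in all, and a log2 fold change of -0.54 that did not pass. Snhg12 had 4.25 and 6.25 RPKM in HF and 12.8 and 0 RPKM in HB, on 7 reads in all. Without HB library 2 its log2 fold change turned from -0.73 to 1.17, and neither value passed, while without HB library 1 it was -2.63 and was called. Snhg1 had 9.94 RPKM in HF library 2, from 5 reads, and 0 in the other libraries. Its log2 fold change was -1.73 and did not pass, but was called without HF library 1, at -3.45, whereas without HF library 2 no reads remained and the change was 0. Snhg6 had 6.33 and 23.3 RPKM in HF, from 1 and 10 reads, and 0 reads in both HB libraries. It was called lower by the rule (limma adjusted p = 0.493), but the HB libraries' limit of 3 reads averaged 40.3 RPKM, above the HF mean of 14.8 RPKM, so that a fall was not detectable at this depth.

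In RPKM, the ratio of footprints to mRNA was higher in Malat1, Neat1 and Kcnq1ot1 than in most of the host RNAs, above all in HF. Malat1, Neat1 and Kcnq1ot1 carried more footprint RPKM than mRNA RPKM in every library pair, whereas in HF, Snhg1, Snhg8 and Snhg12 carried fewer. The median log2 ratio of the nuclear members with at least 1 RPKM in mRNA exceeded that of the host members by 4.10 and 2.82 in HF and by 0.84 and 1.04 in HB. The difference averaged 2.20 ± 1.55 (SD, n = 4 library pairs) and was above 0 in 4 of 4. No p-value is given, since the members are not replicates. Members with 0 footprints entered at 3 reads, which set the value of Meg3 in all 4 library pairs, of Snhg1 in 3, of Snhg6 in 2 and of Snhg12 in 1. Kcnq1ot1 was below 1 RPKM in mRNA and was no part of these differences. With Meg3 left out, which leaves Malat1 and Neat1 as the nuclear class, the differences were 4.51, 3.38, 0.35 and 0.48. With all members above 0 in mRNA, Kcnq1ot1 and Meg3 included, they were 4.51 and 3.38 in HF and 1.37 and 1.24 in HB.

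**Figure D3:**
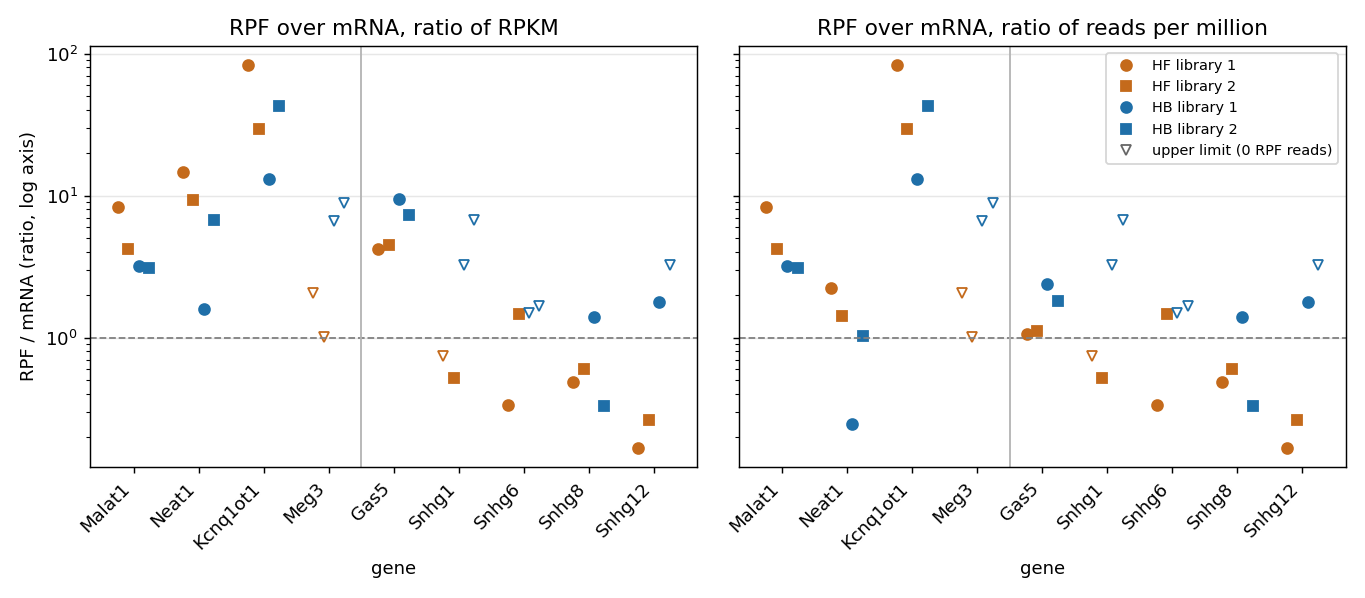
Ratio of RPF to mRNA on a log axis for each member and library pair, as the ratio of RPKM (left) and as the ratio of RPM, which uses no length (right), with open triangles for upper limits where no footprint was counted. The dashed line marks a ratio of 1. Malat1 and Kcnq1ot1 keep their place on both scales, while Neat1 and Gas5 drop on the right because the lengths behind their RPKM values differ between the assays.

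Kcnq1ot1 had the highest ratios, 82.9 and 29.6 in HF and 13.1 and 42.9 in HB, and exceeded each of the 5 host RNAs in all 4 library pairs. Malat1 had ratios of 8.30 and 4.23 in HF and 3.17 and 3.10 in HB. Neat1 had 14.6 and 9.24 in HF and 1.60 and 6.74 in HB. Of the 15 pairs of Malat1, Neat1 or Kcnq1ot1 with a host RNA, the nuclear RNA had the higher ratio in all 4 library pairs in 9 and the lower one in all 4 in 0. Gas5 was the host RNA that did not follow its class, with 4.23 and 4.48 in HF and 9.52 and 7.25 in HB. Malat1 exceeded Gas5 in 1 library pair only.

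Among the other host RNAs, Snhg12 had the lowest ratios in HF, at 0.168 and 0.265. Snhg8 had 0.483 and 0.600 in HF and 1.39 and 0.328 in HB, and Snhg6 had 0.338 and 1.47 in HF. Snhg1 had a ratio of 0.518 in HF library 2 and at most 0.745 in HF library 1. In HB the limits were wide, at up to 3.25 and 6.71 for Snhg1 and 1.49 and 1.68 for Snhg6. Meg3 had at most 2.05 and 1.02 in HF, so a ratio near 1 was not detectable in it at this depth.

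The gene lengths behind the RPKM values bear directly on Neat1 and Gas5. RPKM values are whole reads divided by a length, and the length recovered from the mRNA values of Neat1 was 20769 bases, but 3185 bases from its RPF values. Neat1 is made as a short and a long transcript from 1 start. For Gas5 the lengths were 2554 bases in mRNA and 639 bases in RPF. Whether reads of the 2 assays were counted over the same stretch of these genes was not tested. If they were not, a scale without length does not make their ratios comparable. In 6 other members the lengths were equal, Meg3 had no footprint reads to give a length, and among 2742 genes with at least 100 footprint reads and a length in both assays, 9.41% had lengths that differed by more than 1.5 times. As RPM, which uses no length, the ratio of Neat1 was 2.24 and 1.42 in HF and 0.245 and 1.03 in HB. That of Gas5 was 1.06 and 1.12 in HF and 2.38 and 1.81 in HB. On this scale Malat1 exceeded Gas5 in all 4 library pairs, and the nuclear RNA had the higher ratio in all 4 library pairs in 8 of the 15 pairs of genes, 5 of them with Kcnq1ot1, 3 with Malat1 and 0 with Neat1. The difference between the classes was 2.21 and 1.24 in HF and 0.84 and 0.77 in HB, of which the HB values rested on the limit set for Meg3. With Meg3 left out they were 3.16 and 2.03 in HF and -1.01 and -0.02 in HB. Over RPF values above 0 only, they were 3.41 and 2.03 in HF and -1.01 and 1.21 in HB. On the RPM scale the nuclear RNAs with at least 1 RPKM in mRNA, without Kcnq1ot1, were thus the higher class in both HF pairs under these settings. In HB the sign of this difference depended on Meg3 and on the host RNAs entered at 3 reads.

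The sources of RNA also differed between the assays. RNA-seq libraries were made from polyA-selected RNA, while footprints came from RNA depleted of ribosomal RNA without such a selection, and Malat1 is known to end without a polyA tail. The ribosomes were collected by pelleting through sucrose, and the RPKM values hold no read positions or fragment lengths. Whether the protected fragments of the nuclear RNAs came from ribosomes was not tested.

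Of the 9 members, 7 passed the filter in mRNA as well as in footprints and could be placed among the 9455 genes with a ratio, and Kcnq1ot1 and Meg3 could not. On log2((RPF RPKM + 1)/(mRNA RPKM + 1)), averaged over the 4 library pairs, Neat1 had 2.59 ± 1.38, Gas5 2.50 ± 0.52 and Malat1 2.09 ± 0.66 (SD, n = 4), against a median of -0.16 for protein-coding genes and -0.46 for the 155 long noncoding genes. They ranked at the 99.3, 99.2 and 98.3 percentiles of all genes, and at places 3, 4 and 6 of the long noncoding genes. Snhg8 at -0.70 stood at the 32.3 percentile and Snhg12 at -1.72 at the 10.1 percentile. Snhg6 at -2.56 and Snhg1 at -2.86 stood at the 2.91 and 1.83 percentiles. These low places were set by the added 1 RPKM, since Snhg1 had 0 footprints in 3 of the library pairs and Snhg6 in 2, where the limits given above allow ratios over 1 in HB. The places of Neat1 and Gas5 depend on the lengths, and on whether both assays counted the same stretch of the gene, which was not tested. With the length of the mRNA value in both assays, Neat1 had -0.04 ± 1.28 and Gas5 0.55 ± 0.52 (SD, n = 4), which would place them at the 54.6 and 74.8 percentiles, whereas Malat1 kept its place.

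**Figure D4:**
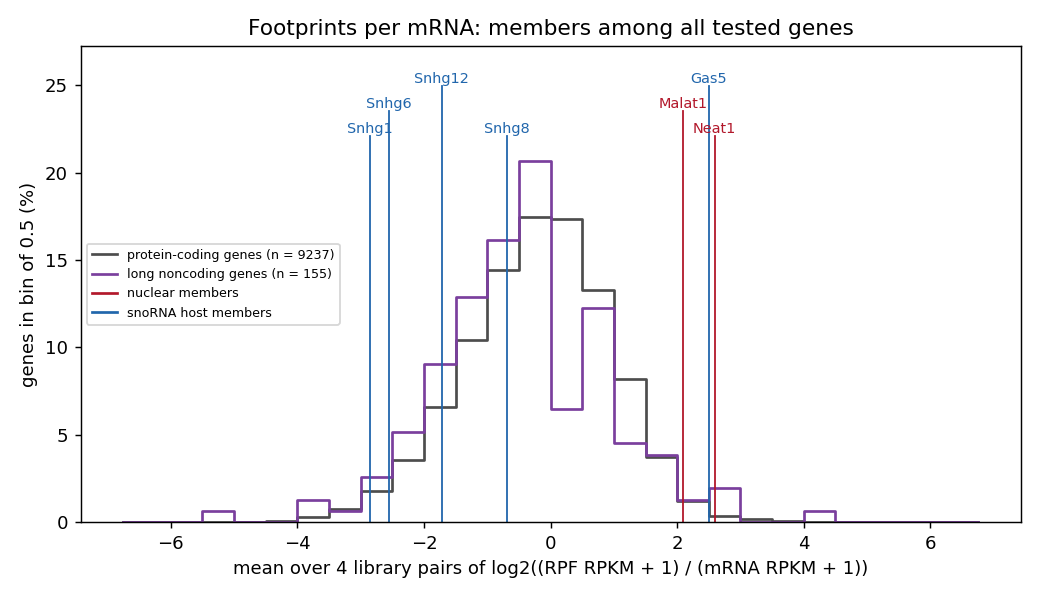
Distribution of the mean log2((RPF RPKM + 1)/(mRNA RPKM + 1)) over 4 library pairs for protein-coding (grey) and long noncoding genes (purple), in bins of 0.5, with vertical lines for the members. Malat1, Neat1 and Gas5 lie in the right tail above 2, of which Neat1 and Gas5 would lie at -0.04 and 0.55 with 1 length in both assays, and Snhg1, Snhg6, Snhg12 and Snhg8 lie left of 0, of which Snhg1, Snhg6 and Snhg12 had 0 footprints in 3, 2 and 1 of the library pairs.

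The other noncoding RNAs spread as widely within each class. Among 10 other noncoding host RNAs with a ratio, Dancr was the highest at 4.39, the 99.9 percentile of all genes, and Snhg3 the lowest at -5.12, the 0.0635 percentile. Dancr had 109.4 and 120.5 RPKM of footprints in HF and 143.1 and 179.5 RPKM in HB. Its mRNA stood at 8.66 and 9.13 RPKM in HF and 2.39 and 4.41 RPKM in HB, with lengths of 426 bases behind the mRNA and 1060 bases behind the footprint values. Snhg3, by contrast, had 2 footprint reads in all, both in HF library 2. In the other library pairs its ratio was set by the added 1 RPKM. Of the other nuclear RNAs, Firre was the lowest at -3.59 and Tug1 the highest at 0.76, so a nuclear RNA with abundant mRNA and almost no footprints was also present. Mir17hg, the host of a microRNA cluster, had 2.99.

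The protein-coding genes whose 4 ratios were nearest to those of Malat1 were Lyz1, a lysozyme, Ppp2cb, a catalytic subunit of protein phosphatase 2A, and Rap1b, a small GTPase. Their Euclidean distances on the log2 scale were 0.164, 0.485 and 0.557 over 4 library pairs, of 4784 genes with at least 5 RPKM in both assays. Nearest to Gas5 were Atp6v0a1, a proton pump subunit, Ahnak, a large scaffold protein, and Cox7a2l, a factor of respiratory supercomplexes, at distances of 0.520, 0.821 and 0.909. These neighbours of Gas5 depend on its lengths. With the length of the mRNA value in both assays for Gas5, the nearest were Ncoa3, a nuclear receptor coactivator, Trnt1, which adds the CCA end of transfer RNAs, and Ltv1, a factor of small ribosomal subunit assembly, at distances of 0.279, 0.361 and 0.389.

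Between HB and HF, TE of 1 of the 7 members tested was called lower and 0 higher under the study's rule for TE (log2 fold change over 2 in size, unadjusted p under 0.05), beside 4.6% lower and 1.49% higher of all 9455 genes tested. The member was Snhg6, with a log2 fold change of -4.22 that rested on the 11 footprint reads of HF (limma adjusted p = 0.334), and it was not called without HF library 2, at -3.24. With 0 footprints in both HB libraries its HB ratios were known only as upper limits, 1.49 and 1.68, which lie above the HF ratios of 0.338 and 1.47, so that a lower TE was not detectable at this depth. No gene of the table passed with an adjusted p under 0.05 in limma, and 1154 had an unadjusted p under 0.05. Neat1 had a log2 fold change in TE of -1.84 ± 0.75 (SE, n = 2, limma adjusted p = 0.408), short of the fold required. Without HB library 2 it was -2.86 and with a common sum -2.67, and both were called, whereas without HB library 1 it was -0.83. The common sum called 14.1% of all genes lower in TE, at a median log2 fold change of -1.03. Gas5 had both HB ratios above both HF ratios, but its log2 fold change of 0.86 ± 0.45 did not pass (SE, n = 2, limma adjusted p = 0.484), and with a common sum it was 0.04. Malat1 had -0.92 and likewise did not pass. Snhg12, at 0.64, was called higher without HB library 2, at 2.79, a value that rested on the 2 footprint reads of HB library 1.

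The same rules called 1 of 10 paraspeckle genes lower in footprints and 1 of 10 higher in TE. They called 2 of 13 decay and exon junction genes lower in TE. Of all genes tested, 7.86% were called lower and 1.58% higher in footprints, and 4.6% lower and 1.49% higher in TE. In footprints, the paraspeckle protein Nono had 50.2 and 61.4 RPKM in HF and 26.8 and 25.7 RPKM in HB and was called lower, at a log2 fold change of -1.05 (limma adjusted p = 0.493). Nono was the only one of 10 paraspeckle genes called in that assay, and was not called without HF library 2, at -0.91, with a common median, at -0.73, or with no intensity trend. In TE, Dazap1 of the same list was called higher at 2.36, and Upf3a and Eif4a3 of the decay and exon junction list were called lower at -2.07 and -2.79, but all 3 calls were lost without HF library 1, HF library 2 or HB library 2, at 1.93, 2.78 and 1.55 for Dazap1, -2.04, -2.11 and -1.23 for Upf3a, and -2.19, -3.40 and -1.43 for Eif4a3. All 3 were also lost with 0.1 RPKM added in place of 1, and Dazap1 with a common sum, at 1.62. Mir17hg was called higher in footprints and in TE, at log2 fold changes of 2.09 and 2.85. The call in footprints was lost without HF library 1, HB library 1 or HB library 2, at 1.35, 1.66 and 2.51, and the call in TE without HF library 1, at 2.22. With a common sum the change in footprints was 1.26 and was not called. Of the 36 protein-coding snoRNA hosts, Rpl21 was called higher in footprints and Rpl3 lower in TE, at 1.34 and -2.29. Rpl21 was not called without HF library 2 or HB library 2, at 1.05 and 1.07, or with a common sum, at 0.48, nor Rpl3 without HF library 1, HF library 2 or HB library 2, at -2.37, -2.21 and -1.76. None of the 14 snoRNP genes was called in footprints. Among the noncoding lists, Snhg17 and Ftx were called lower in footprints, but both had 0 reads in HB and passed the filter through HF alone, so that a fall was fixed by the filter.

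The snoRNAs released by the hosts were read in the Ribo-seq libraries as well. In the files, 8 snoRNA genes lying inside the 5 host members had a value, all at 0 in RNA-seq and each above 0 in at least 1 Ribo-seq library. Snord87, the snoRNA of Snhg6, had 2299 and 2289 RPKM in HF and 11669 and 15238 RPKM in HB, on 66, 179, 222 and 160 reads. It was higher in both HB libraries by 2.54 ± 0.38 as a log2 fold change and was called (SE, n = 2, limma adjusted p = 0.493), although not without HF library 1 or HF library 2, at 2.54 in both. Snord22 of Snhg1 had 675 and 428 RPKM in HF and 1297 and 783 RPKM in HB, and was not called. Snora24 of Snhg8 had 2161 and 2097 RPKM in HF and 957 and 1626 RPKM in HB, also not called.

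Of 4 snoRNAs of Snhg12, Snord99 was called lower, at a log2 fold change of -1.11 that was not called without any one of the 4 libraries (-0.66 to -1.57), and Snora16a, Snora44 and Snora61 were not called. Their summed level was 3432 and 3571 RPKM in HF and 1892 and 1849 RPKM in HB. Snord47 of Gas5 had 7 reads in each HF library and 0 in HB and was called lower, having passed the filter through HF alone. The share of all footprint reads on small RNA genes was 5.19% and 6.53% in HF and 9.22% and 17.6% in HB, and its part in these values was not tested.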

How the data were processed

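RNA-seq and Ribo-seq were measured in 8 liver samples, 2 libraries for each assay in HF and in HB. Reads had been mapped by the authors with FANSe2 to the mouse genome, and the submitters' processing notes name the build mm10 and edgeR. The authors deposited 1 RPKM value per gene and library. The deposited values are RPKM, not counts, so no count test was run. Whole reads and gene lengths were recovered from the steps of the RPKM values. Library totals so obtained and the RPKM of 3 reads set the depth limits.

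HB and HF were compared with limma 3.58.1 in R 4.3.3 (intensity trend) on log2(RPKM + 1), over genes with a mean of at least 1 RPKM in the assay. For TE, RPF was divided by mRNA in libraries of the same group and number, a pairing that the values did not show. Calls used the study's thresholds on fold change and unadjusted p, with Benjamini-Hochberg adjusted p over all genes beside them. The scripts were tested on simulated data. The 9 members and the gene lists were chosen with earlier results of these data known. All 9 members were named, and of each list up to 3 called genes with the smallest p and the genes with the highest or lowest ratio in the noncoding lists. For Malat1 and Gas5 the 3 nearest genes by ratio were named. Firre, Ftx, Snhg10, Mir22hg, Upf3a and single snoRNAs were named where a count was small. Alternatives changed the pseudocount, filter, scaling, variance trend, replicate block and libraries. Python 3.11.15 with pandas 2.3.3 drew the tables.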

Additional observations from a re-analysis of the deposited data

How the results depend on the processing

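The mean excess of the nuclear over the host RNAs in footprints per mRNA stayed above 0 under the alternatives run, from 1.04 (RPM, without Meg3) to 3.0 (1 RPKM added) on the log2 scale, and from 1.57 to 2.65 with 1 library pair left out. In HB it was below 0 in both library pairs on RPM without Meg3, which leaves Malat1 and Neat1, at -1.01 and -0.02. It was below 0 in 1 on RPM over values above 0. In mRNA, the calls of Neat1, Snhg1 and Snhg12 were each lost with some library left out, as given above. With no filter, 2 members were called lower in mRNA. Calls over all genes then fell from 701 to 188 lower and from 246 to 77 higher. In RPF, 4 members were called lower with RPKM rescaled to a common sum, beside 23.8% of all genes. In TE, 2 were called lower with a common sum, beside 14.1% of all genes. By adjusted p, 0 members were called in RPF or TE, as over all genes. With 1 library pair left out, the TE calls of Snhg6, Neat1 and Snhg12 changed as given above. Direction turned in values that were not called: Malat1 mRNA to 0.24 (common median), and between -0.21 and 0.15 with 1 library left out (0.07 without HF library 2), Gas5 RPF to 0.10 (common median), Snhg8 TE to -0.44 (common sum), and Snhg12 TE to -0.74 (0.1 RPKM added). With 1 library or library pair left out, Snhg12 RPF ranged from -2.63 to 1.17, Snhg1 TE from -2.13 to 1.50, Snhg8 TE from -0.65 to 1.30, and Snhg12 TE from -1.50 to 2.79, with calls at 2.79 and at -2.63. The cause was not tested. The common median moved the median mRNA change of all genes from -0.19 to 0.08.

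The replicate numbers did not pair the libraries. Deviations of same-numbered HF and HB libraries correlated at -0.10 in mRNA, -0.01 in RPF and 0.01 in TE. Those of same-numbered RNA-seq and Ribo-seq libraries correlated at -0.002 in HF and -0.08 in HB. The library pairs behind the ratios were therefore matched by number only. With the numbers of the assays crossed, the class difference was 3.72 and 3.20 in HF and 1.77 and 0.35 in HB. With the replicate block, 4 members were called lower in mRNA, with Gas5 joining. Scaling to protein-coding reads, the crossed replicate block, the class difference without Meg3, over values above 0 and as RPM, and the use of 1 length in both assays (also for the place of Neat1 and Gas5 among all genes and the neighbours of Gas5) were chosen after seeing the data. Depth limits the RPF values of Snhg1, Snhg6, Snhg8, Snhg12 and Meg3.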
